A study of Mus musculus with 6 samples.

Results

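Interferon-stimulated effector genes are the genes whose proteins carry out what interferon orders: they block translation of viral RNA, break down nucleotides, hold virus particles at the membrane, tag proteins with ISG15 or attack the membranes around intracellular parasites. The set described here was given as a list of 42 mouse gene symbols in 10 families and leaves out the OAS and guanylate-binding protein families. A row with a matching symbol was found for 40 of the 42 among the 21929 genes of the table, in 9 families. Mx1 and Mx2, the symbols of the remaining family, were not analysed here.

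The libraries hold RNA of L929, an established mouse fibroblast line, so all of them come from 1 line. There were 3 Biotin-negative libraries, which the labels give as tumour-uninteracted L929 cells, and 3 Biotin-positive libraries, given as MFCSTCL-interacted L929 cells. Both groups came from co-culture, so no library shows L929 cells grown alone. How biotin was attached to the cells and how the cells were divided is not given in the sources used here, and all 6 libraries carry 1 batch label. Whether the 3 libraries of each group are separate cultures is not stated, and p-values therefore reflect only how far these libraries spread, which may be technical.

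Type I interferons bind a receptor made of IFNAR1 and IFNAR2. The kinases JAK1 and TYK2 then activate transcription factors, STAT2 and IRF9 among them, that bind the interferon-stimulated response element (ISRE) in the promoters of effector genes. Interferon gamma acts at another element, the gamma-activated site (GAS), and fibroblasts are a classical source of, and responder to, interferon beta.

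Values are FPKM, read fragments relative to the length of the gene and the size of the library. A level is given as the mean ± SD in FPKM (n = 3 libraries in each group), Biotin-negative before Biotin-positive, and a fold is the Biotin-positive mean over the Biotin-negative mean. Log2 differences are Biotin-positive minus Biotin-negative of log2(FPKM + 1) values, a scale on which changes of low genes come out too small. Differences were tested with limma across 11029 genes, and a gene is called higher, risen, lower or fallen where its Benjamini-Hochberg adjusted p is under 0.05. FPKM summed to between 337771 and 356681 per library. Reads per library cannot be recovered from FPKM, so the depth is unknown. Library profiles correlated at 0.994 to 0.996 within a group and at 0.927 to 0.930 across groups (Pearson's r across tested genes, which are not independent replicates).

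Markers of other cell types were read beside the members. Of 15 epithelial markers 2 were high enough to be tested, through the Biotin-positive group alone, so that they had to be higher there. Krt7 lay between 0.173 and 0.320 FPKM in the Biotin-negative libraries and between 24.0 and 26.1 FPKM in Biotin-positive libraries, and Krt8 between 0.0204 and 0.0509 FPKM against 20.4 to 21.1 FPKM. The summed epithelial level was 1.30 to 1.39 FPKM against 45.6 to 48.0 FPKM, and Krt7 and Krt8 made up nearly all of the latter. Muc1 went from 0.753 to 0.473 FPKM on group means, and Krt18 reached at most 0.0263 FPKM. Epcam reached at most 0.0231 FPKM and Cdh1 at most 0.0227 FPKM, while Krt20, Tff1 and Tff2 were at 0 in every library. The 13 leukocyte markers summed to 12.0 to 15.3 FPKM against 14.7 to 17.9 FPKM. Of the 3 that were tested, Cd14 and Lyz2 rose and Cd68 fell. Adgre1, Cd3e and Siglech were at 0 in every library and Ptprc reached at most 0.0354 FPKM. None of the 6 endothelial markers was high enough to be tested, and their sum was 0.174 to 0.242 FPKM against 0.451 to 0.811 FPKM. On group means Cdh5 went from 0.0422 to 0.569 FPKM. Pecam1 went from 0.0885 to 0.0272 FPKM, Kdr from 0.0252 to 0.0168 FPKM and Tek from 0.0448 to 0.00324 FPKM. Cldn5 and Erg were at 0 in every library. Of 11 fibroblast markers 8 were tested, of which 3 rose (Vim, Fbln2 and S100a4) and 5 fell. On group means Col1a1 fell from 167 to 90.3 FPKM, Col1a2 from 370 to 180 FPKM and Col3a1 from 208 to 58.2 FPKM. Pdgfra fell from 20.5 to 11.8 FPKM and Pdgfrb from 33.9 to 14.4 FPKM. The 11 markers summed to 2034 to 2089 FPKM against 2561 to 2634 FPKM. Vim, at 645 to 673 FPKM against 1381 to 1466 FPKM, rose by more than this sum. Thy1, Dcn and Lum reached at most 0.293 FPKM. The part of these markers in the differences below was not tested. In such bulk libraries fewer cells of a type and less RNA per cell cannot be told apart.

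Of the 40 members, 32 were higher in the Biotin-positive libraries, 6 were lower and 2 did not pass the test. Among all 11029 tested genes, 37.8% were called higher and 36.1% lower, 73.9% in all. The lower members were Isg15, Ifitm1, Ifitm2, Ifitm3, Rtp4 and Lgals3bp, and those that did not pass were Xaf1 and Ifi35. The median log2 difference was 0.55 over the members, with quartiles of 0.16 and 0.81, and 0.01 over all tested genes, with quartiles of -0.30 and 0.32. The members were chosen with earlier results of these data known, so this contrast is a description and no test. The 3 libraries of one group lay wholly above the 3 of the other for 38 members, of which 32 were higher and 6 lower. Among these 38 are Cmpk2, Ifi205 and Ifitm1, whose groups the filter kept from overlapping. Over all tested genes, such separation was found in 39.1% for higher and 37.8% for lower values, 76.9% in all. A log2 difference of at least 1 in size was reached by 8 members that rose and by 1 that fell, against 5.29% and 3.41% of all tested genes. These include Cmpk2, Ifi205 and Ifitm1, which had to differ, and over the other 37 members the counts were 6 and 0.

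All 40 members passed the filter of 1 FPKM in at least 3 libraries. Cmpk2 and Ifi205 passed it through the Biotin-positive group alone and Ifitm1 through the Biotin-negative group alone, so these 3 had to differ. Of the other 37, 30 were higher, 5 lower and 2 did not pass, with a median log2 difference of 0.53. In 6 of the 9 families, with 25 members in all, every member was higher. These 25 include Cmpk2 and Ifi205. They also include Irgm1, Iigp1, Ifi203 and Sp100, whose calls were lost under at least 1 of the alternative settings described below. All lower members and both that did not pass were among the 15 members of the ISG15 system, the membrane restriction factors and a mixed group of other effectors.

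**Figure D1:**
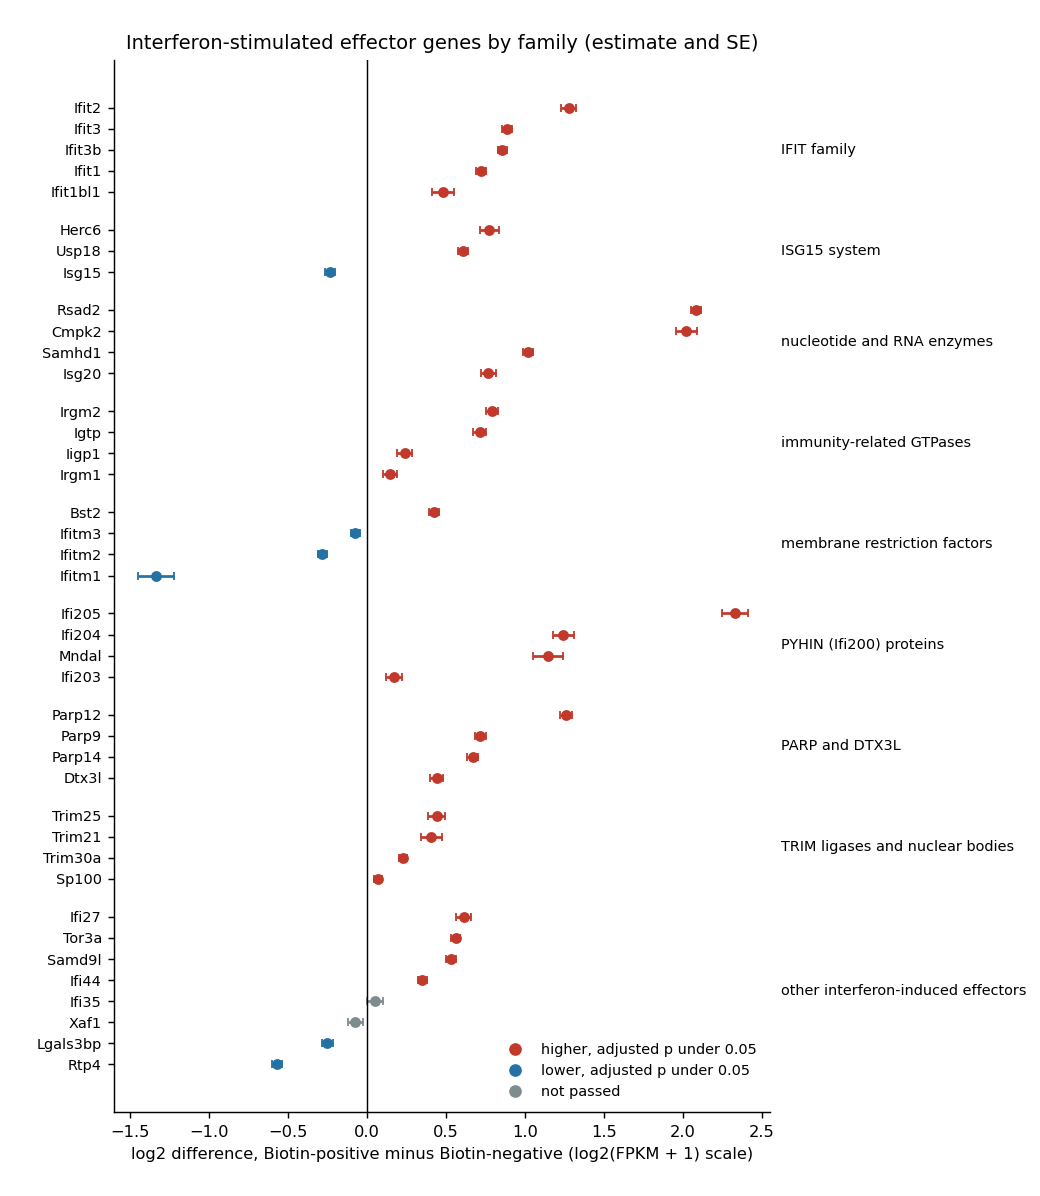
Log2 difference on the log2(FPKM + 1) scale (horizontal axis, Biotin-positive minus Biotin-negative) of each of the 40 members, grouped by family, with bars of 1 standard error. The 32 members that were higher lie right of 0, and the 6 that were lower lie left of it.

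**Figure D2:**
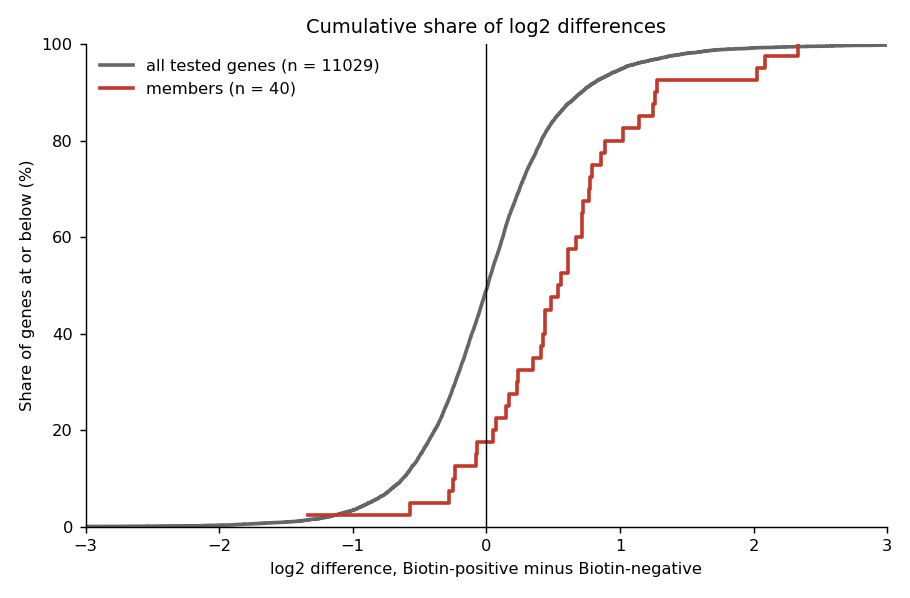
Cumulative share (vertical axis, percent) of genes at or below each log2 difference (horizontal axis, Biotin-positive minus Biotin-negative) for the 40 members and for all 11029 tested genes. The median is 0.55 for the members, which were chosen with earlier results of these data known, and 0.01 for all tested genes.

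The promoter letters are shown here because the members that rose and those that fell carry the same kind of motif. RefSeq promoter windows on GRCm38.p6, from 250 bases before to 50 bases after the start, were matched for 32 of the 40 members. Usp18, Iigp1, Ifi204, Parp9, Parp14, Tor3a, Ifi27 and Rtp4 had no entry. The ISRE core was searched as GAAA, any 2 bases and GAAA on both strands (TTTC, any 2 bases and TTTC on the other), and GAS as TTCNNNGAA, which reads the same on both strands. The motifs may overlap, and a match describes letters and not a bound site. In the stretches below, 5′ to 3′ on the gene's strand, capitals mark these motifs.

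The first set are stretches from members that rose, with 2 ISRE cores each in Ifit1 and Ifit3 and 1 in Rsad2.
Ifit1, chr19:34640763-34640835, plus strand: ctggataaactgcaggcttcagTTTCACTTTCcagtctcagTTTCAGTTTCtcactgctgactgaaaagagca
Ifit3, chr19:34583351-34583438, plus strand: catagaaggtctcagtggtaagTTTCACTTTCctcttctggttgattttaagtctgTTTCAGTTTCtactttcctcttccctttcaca
Rsad2, chr12:26456541-26456594, minus strand: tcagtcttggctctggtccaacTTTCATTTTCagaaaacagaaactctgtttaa
The Ifit3b promoter holds the same 88 bases as the Ifit3 stretch, with 0 differences, at chr19:34607747-34607834.

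The second set are stretches from members that rose and hold both motifs. In Bst2 a GAS overlaps the first of 2 ISRE cores, which overlap each other, and in the neighbouring genes Igtp and Irgm2 a GAS lies just ahead of 1 ISRE core.
Bst2, chr8:71537565-71537630, minus strand: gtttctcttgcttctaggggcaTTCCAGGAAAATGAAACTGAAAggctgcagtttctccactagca
Igtp, chr11:58199489-58199553, plus strand: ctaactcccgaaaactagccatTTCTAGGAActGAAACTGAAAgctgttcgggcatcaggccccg
Irgm2, chr11:58214880-58214944, plus strand: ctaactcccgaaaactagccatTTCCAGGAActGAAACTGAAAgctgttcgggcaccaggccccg
The Igtp and Irgm2 stretches, of 65 bases each, differ at 2 bases.

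The third set are the PYHIN genes Mndal and Ifi205, which lie near each other and rose.
Mndal, chr1:173880192-173880245, minus strand: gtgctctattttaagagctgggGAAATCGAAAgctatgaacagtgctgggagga
Ifi205, chr1:174031858-174031911, minus strand: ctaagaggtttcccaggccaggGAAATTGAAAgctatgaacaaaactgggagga
The Ifi203 promoter holds the same 54 bases as the Mndal stretch, with 0 differences, at chr1:173942496-173942549.

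The last set are stretches from members that fell. Isg15 holds 3 overlapping ISRE cores, which begin 78, 72 and 66 bases before its start, and Ifitm2 holds 1.
Isg15, chr4:156200853-156200918, minus strand: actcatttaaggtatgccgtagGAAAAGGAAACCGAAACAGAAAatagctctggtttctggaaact
Ifitm2, chr7:140955976-140956029, minus strand: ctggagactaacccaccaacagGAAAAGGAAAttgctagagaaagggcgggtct

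An ISRE core stood in the window of 17 of the 32 members with a promoter entry (53.1%), and in 1079 of the 27025 genes of the promoter table (3.99%). Counted by window, 20 of 40 member windows (50%) and 1131 of all 32851 windows (3.44%) held one. A GAS stood in 8 of the 32 members (25%) and in 9.55% of all genes, and Bst2, Igtp, Irgm2 and Ifitm3 held both motifs. Of the 25 members that rose and had an entry, 14 held an ISRE core (56%). Of the 5 that fell, 3 held one (60%), namely Isg15, Ifitm2 and Ifitm3. The call of Ifitm3 was lost under 10 of 14 alternative settings, and its cores lie after the start, at bases 3 and 20. The 17 members with an ISRE core had a median log2 difference of 0.48, with a range from -0.28 to 2.33. The 15 without one had a median of 0.44, with a range from -1.34 to 2.02. The core was found in members of both directions, and the ranges with and without it overlapped.

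**Figure D3:**
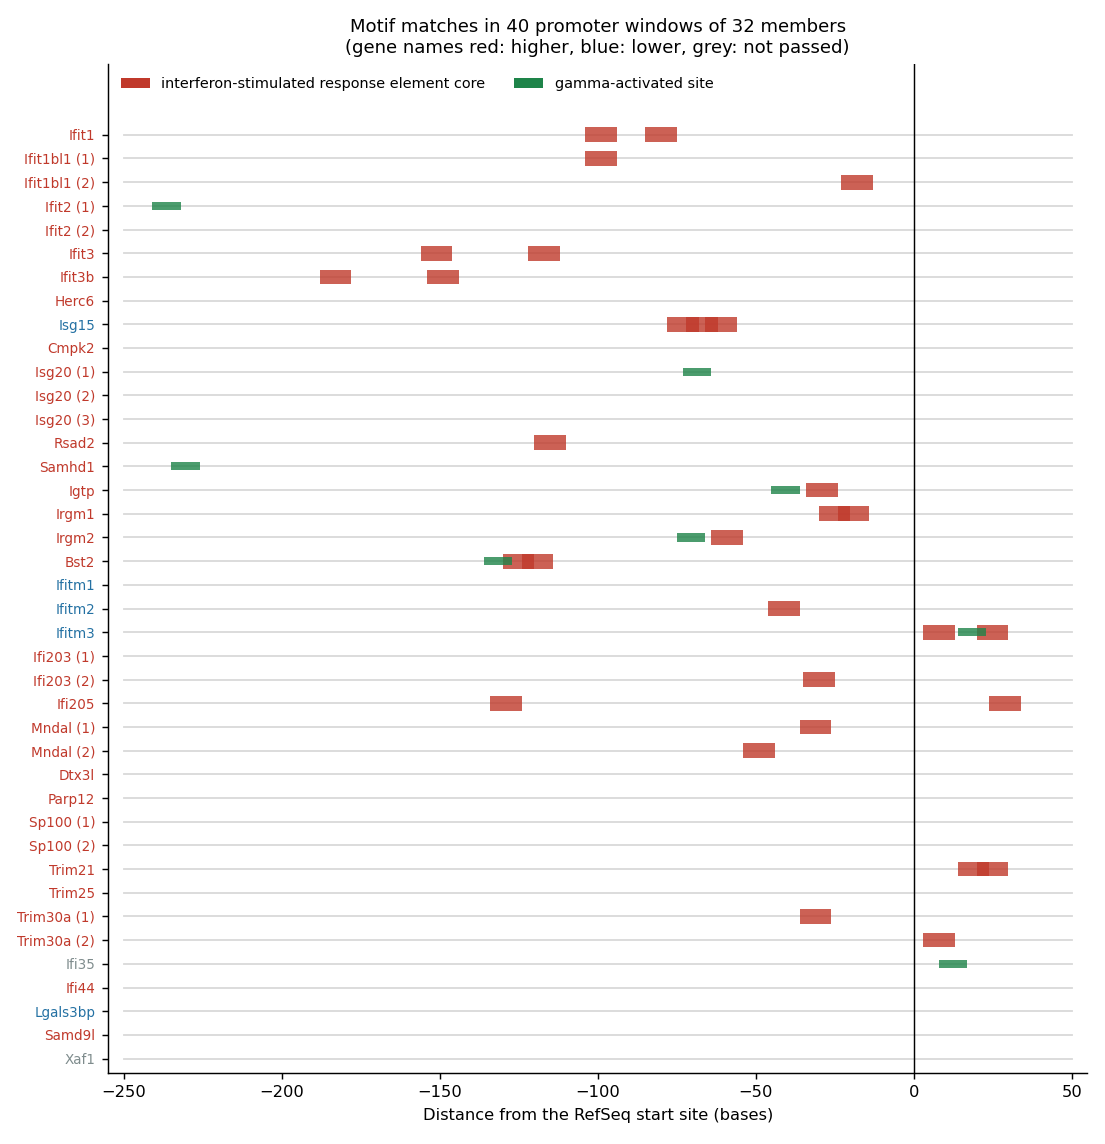
Position of ISRE cores (red bars) and GAS motifs (green bars) relative to the start site (horizontal axis, bases) in the 40 promoter windows of 32 members; genes with several starts have a numbered line each. Isg15 and Bst2 carry overlapping motifs, and Isg15, Ifitm2 and Ifitm3, whose names are in blue because they fell, hold the core too.

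Genes of the IFIT family, whose proteins bind viral RNA and block its translation, all rose (5 of 5, median log2 difference 0.86). They lie within 99.3 kb on chromosome 19 (GRCm38), and their summed level went from 411 ± 4.76 to 752 ± 19.9 FPKM, 1.83-fold. Ifit2 (chr19:34550694-34576419) stood at 14.5, 15.5 and 13.8 FPKM in the Biotin-negative libraries, against 38.0, 36.7 and 35.7 FPKM in Biotin-positive libraries. Every Biotin-positive library was thus more than double any Biotin-negative one, and the log2 difference was 1.28 (SE 0.0492, limma adjusted p = 8.41e-08). Ifit3, the most abundant member of the family, was measured at 233, 234 and 242 FPKM against 443, 447 and 426 FPKM. Its mean was 1.86-fold higher without overlap (log2 difference 0.89, SE 0.0307, limma adjusted p = 4.79e-08). Ifit3b gave 76.3, 73.5 and 75.1 FPKM against 138, 139 and 133 FPKM, a log2 difference of 0.86 (SE 0.0300, limma adjusted p = 5.08e-08). The rise of Ifit3b was near that of Ifit3 in size. The transcripts of Ifit3 and Ifit3b are 97.8% identical over 97.4% of Ifit3, so how reads were divided between them is uncertain. Ifit1, from 82.7 ± 0.688 to 137 ± 5.13 FPKM, and the low Ifit1bl1, from 1.85 ± 0.136 to 2.99 ± 0.269 FPKM, rose 1.66-fold and 1.61-fold.

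In the ISG15 system the modifier fell while both enzyme genes rose. Isg15 encodes the ubiquitin-like protein that is joined to other proteins after interferon, and it stood at 535, 567 and 552 FPKM in the Biotin-negative libraries, against 464, 483 and 458 FPKM in Biotin-positive libraries. No Biotin-positive library reached the lowest Biotin-negative one, and the log2 difference was -0.23 (SE 0.0335, limma adjusted p = 0.000243). Usp18, the protease that removes ISG15 and also dampens signalling at IFNAR2, was measured at 127, 125 and 130.1 FPKM against 194, 200.3 and 189 FPKM. All 3 Biotin-positive libraries were higher, by 1.53-fold on the mean (log2 difference 0.61, SE 0.0316, limma adjusted p = 4.48e-07). Herc6, the ligase that joins ISG15 to its targets in mouse, had 8.65, 9.80 and 8.31 FPKM against 16.3, 15.8 and 15.7 FPKM. That was 1.78-fold higher, again without overlap (log2 difference 0.77, SE 0.0606, limma adjusted p = 5.49e-06), although 13.7% of the exonic bases of Herc6 also belong to another annotated transcript on its strand. Since Isg15 makes up most of the summed level of the 3 genes, that sum hardly moved, from 687 ± 15.6 to 679 ± 18.2 FPKM.

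All 4 genes of enzymes that act on nucleotides and RNA rose, with a median log2 difference of 1.52, or 1.02 over the 3 other than Cmpk2. Rsad2 encodes viperin, which makes a chain-terminating nucleotide, and lies beside Cmpk2, a mitochondrial nucleotide kinase that supplies its substrate, within 37.1 kb on chromosome 12. Rsad2 (chr12:26442746-26456452) stood at 51.0, 48.7 and 49.3 FPKM in the Biotin-negative libraries, against 218, 208 and 215 FPKM in Biotin-positive libraries. The Biotin-positive libraries were all about 4 times as high, with a fold of 4.30 (log2 difference 2.08, SE 0.0321, limma adjusted p = 1.15e-09). Rsad2 thereby moved from rank 20 to rank 7 among the members by level. Cmpk2 (chr12:26469204-26479837) had 0.346, 0.341 and 0.227 FPKM against 4.27, 4.43 and 4.20 FPKM. It was under 1 FPKM in every Biotin-negative library and above 4 FPKM in every Biotin-positive one. Its log2 difference was 2.02 with a pseudocount of 1 FPKM (SE 0.0642) and 3.46 with one of 0.1 FPKM, and the filter fixed its direction. Samhd1, a phosphohydrolase that removes deoxynucleotides, was measured at 44.6, 43.1 and 43.1 FPKM against 90.5, 87.8 and 90.2 FPKM. These values separated the groups by a factor of 2.05 on the mean (log2 difference 1.02, SE 0.0304, limma adjusted p = 2.275e-08). Isg20, an RNA exonuclease, rose 1.74-fold, from 18.7 ± 1.07 to 32.5 ± 0.832 FPKM. The summed level of the family went from 112 ± 2.65 to 339.9 ± 5.97 FPKM, 3.03-fold.

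The immunity-related GTPases, which load onto the vacuoles of intracellular parasites, also rose in all 4 members, with a median log2 difference of 0.48. Irgm2 had 18.9, 17.9 and 17.9 FPKM in the Biotin-negative libraries, against 31.96, 31.8 and 33.2 FPKM in Biotin-positive libraries, and its neighbour Igtp (Irgm3) had 26.8, 25.3 and 27.1 FPKM against 45.9, 42.6 and 43.35 FPKM. In both genes every Biotin-positive library was higher, with log2 differences of 0.79 (SE 0.0388, limma adjusted p = 3.28e-07) and 0.71 (SE 0.0427, limma adjusted p = 1.035e-06). Both encode regulators of the other family members, and the genes share 162 exonic bases on the same strand, so a part of their reads could be counted for either. Iigp1, an effector GTPase that acts on the vacuole membrane, was measured at 72.6, 79.4 and 69.4 FPKM against 89.95, 86.4 and 85.1 FPKM. Its groups did not overlap (log2 difference 0.24, SE 0.0497, limma adjusted p = 0.002302), but with quantile normalization the difference was 0.10 and did not pass (limma adjusted p = 0.0781). Its transcript is 87.15% identical to Gm4951 over 71.6% of its length. Irgm1, the other regulator, differed least, from 57.5 ± 1.16 to 63.8 ± 3.81 FPKM, a log2 difference of 0.15 (SE 0.0452, limma adjusted p = 0.0171). Without Biotin-negative replicate 2 the adjusted p of Irgm1 was 0.0508, without Biotin-positive replicate 1 it was 0.0631 and without Biotin-positive replicate 2 it was 0.0577. Scaling moved Irgm1 further, to a log2 difference of 0.034 with quantile normalization (limma adjusted p = 0.441) and of 0.085 with an equal sum per library (limma adjusted p = 0.0792).

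Membrane restriction factors were the family in which lower members prevailed, with 1 higher and 3 lower and a median log2 difference of -0.18, or -0.07 over the 3 other than Ifitm1. The interferon-induced transmembrane proteins, which keep viruses from fusing with endosomal membranes, fell in all 3 measured genes, which lie within 55.9 kb on chromosome 7. Ifitm1 had 2.38, 3.06 and 2.34 FPKM in the Biotin-negative libraries, against 0.641, 0.276 and 0.353 FPKM in Biotin-positive libraries. It lay above 2 FPKM in each Biotin-negative library and below 1 FPKM in each Biotin-positive one (log2 difference -1.34, SE 0.114), and it passed the filter through the Biotin-negative group alone. Ifitm2 was measured at 212, 221 and 217 FPKM against 181, 175 and 178 FPKM. All Biotin-positive libraries were lower (log2 difference -0.28, SE 0.0287, limma adjusted p = 2.78e-05), and 40.9% of the exonic bases of Ifitm2 also belong to the gene model Gm45717 on its strand. Ifitm3, the most abundant of the 40 members, had 1117, 1123 and 1151 FPKM against 1074, 1086 and 1061 FPKM. Its groups were separate but close (log2 difference -0.07, SE 0.0280, limma adjusted p = 0.04003), and the call did not hold when any 1 library was left out. Those adjusted p-values were 0.0503, 0.0753 and 0.134 without Biotin-negative replicates 1, 2 and 3, and 0.0835, 0.0506 and 0.0732 without Biotin-positive replicates 1, 2 and 3. Bst2 encodes tetherin, which ties budding virus to the cell surface, and stood at 762, 759 and 772 FPKM against 1041, 1038 and 1000.5 FPKM. In contrast to the Ifitm genes it was higher in every Biotin-positive library, 1.34-fold on the mean (log2 difference 0.42, SE 0.0288, limma adjusted p = 2.25e-06). The summed level of the family was therefore 1.08-fold higher although 3 of 4 members fell.

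**Figure D4:**
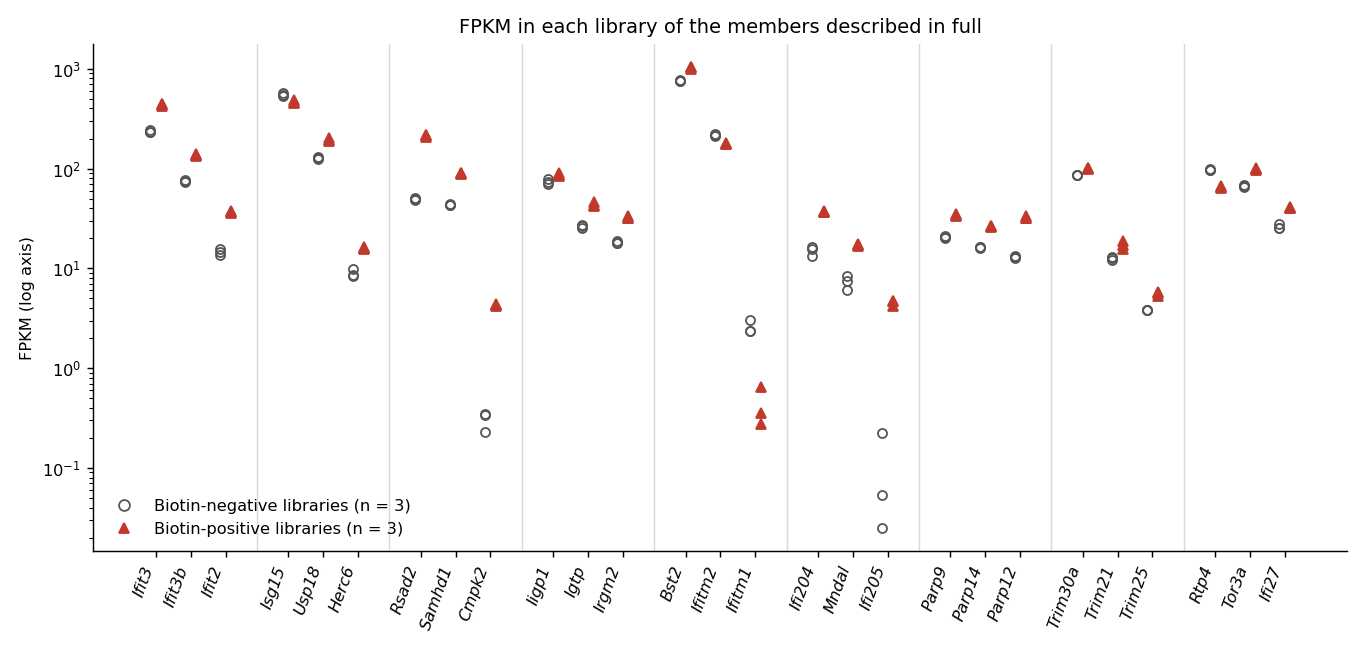
FPKM (vertical axis, log scale) of the members described in full, with 1 point per library: open circles for the 3 Biotin-negative and triangles for the 3 Biotin-positive libraries, genes grouped by family. The triangles lie above the circles except for Isg15, Ifitm2, Ifitm1 and Rtp4, where they lie below. Ifitm3, Xaf1 and Ifi35 are not drawn.

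PYHIN genes encode proteins that bind DNA in the nucleus or cytosol, and all 4 rose, with a median log2 difference of 1.19, or 1.15 over the 3 other than Ifi205. They lie within 284.5 kb on chromosome 1. Ifi205 (chr1:174011998-174031810) had 0.223, 0.0535 and 0.0249 FPKM in the Biotin-negative libraries, against 4.72, 4.67 and 4.18 FPKM in Biotin-positive libraries. Its log2 difference was 2.33 (SE 0.0845), from a Biotin-negative level near 0, and it had to differ because it passed the filter through the Biotin-positive group alone. Ifi204 was measured at 15.5, 13.4 and 16.5 FPKM against 38.0, 36.9 and 36.5 FPKM. Every Biotin-positive library was more than double the highest Biotin-negative one (log2 difference 1.24, SE 0.0680, limma adjusted p = 5.895e-07). Mndal stood at 6.01, 8.39 and 7.41 FPKM against 16.6, 17.3 and 17.6 FPKM, 2.36-fold higher without overlap (SE 0.0960 on the log2 scale, limma adjusted p = 8.39e-06). Ifi203 lay in the same stretch of the chromosome but moved little, from 15.5 ± 0.952 to 17.6 ± 0.704 FPKM (limma adjusted p = 0.0185). Leaving out Biotin-negative replicate 3 gave an adjusted p of 0.0652 for Ifi203, leaving out Biotin-positive replicate 2 gave 0.0628 and leaving out Biotin-positive replicate 3 gave 0.0568, and with an equal sum per library its log2 difference was 0.11 (limma adjusted p = 0.0995). Members of this cluster resemble each other: Ifi205 is 94.1% identical to Ifi211 over 99.75% of its transcript, Ifi204 is 96.9% identical to Ifi211 over 59.3%, and Mndal is 95.8% identical to Ifi204 over 38.25%. How reads were divided among them is uncertain.

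The PARP genes, which encode ADP-ribosyltransferases with antiviral roles, and Dtx3l, the ubiquitin ligase that pairs with PARP9, rose in all 4 members (median log2 difference 0.69). Parp12 had 13.3, 12.6 and 12.9 FPKM in the Biotin-negative libraries, against 31.97, 31.9 and 33.3 FPKM in Biotin-positive libraries. The libraries of each group lay close together and 2.50-fold apart on the mean (log2 difference 1.26, SE 0.0391, limma adjusted p = 2.85e-08). Parp9 was measured at 21.1, 20.0 and 20.7 FPKM against 35.1, 33.8 and 34.6 FPKM, and Parp14 at 16.4, 15.96 and 16.5 FPKM against 26.8, 26.0 and 26.6 FPKM. Both were higher in every Biotin-positive library, with log2 differences of 0.72 (SE 0.0364, limma adjusted p = 3.865e-07) and 0.67 (SE 0.0356, limma adjusted p = 5.09e-07). Dtx3l, which lies between them on chromosome 16, rose 1.38-fold, from 15.6 ± 0.342 to 21.5 ± 0.577 FPKM. Parp9 and Dtx3l overlap by 458 exonic bases on opposite strands, and without stated strandedness reads there cannot be told apart. Parp12 lies on another chromosome and had the largest change of the family.

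All 4 members of the TRIM and nuclear body group rose, by less than those of most other families (median log2 difference 0.32). Trim25, a ubiquitin ligase of the RIG-I pathway, had 3.85, 3.85 and 3.84 FPKM in the Biotin-negative libraries, against 5.28, 5.64 and 5.84 FPKM in Biotin-positive libraries. Trim21, a cytosolic antibody receptor, had 12.2, 12.9 and 12.7 FPKM against 18.7, 17.1 and 15.6 FPKM. Neither gene had overlapping groups, with log2 differences of 0.44 (SE 0.0556, limma adjusted p = 0.000112) for Trim25 and 0.41 (SE 0.0638, limma adjusted p = 0.000418) for Trim21. Trim30a stood at 85.8, 85.4 and 86.3 FPKM against 101, 101 and 99.5 FPKM. It was 1.17-fold higher with a narrow spread in both groups (log2 difference 0.23, SE 0.0262, limma adjusted p = 6.32e-05), and its transcript is 86.2% identical to Trim30d over 84.8% of its length. Sp100, which marks nuclear bodies, went from 93.0 ± 1.22 to 97.6 ± 1.34 FPKM and only just passed (log2 difference 0.07, SE 0.0275, limma adjusted p = 0.04901). It did not pass without Biotin-negative replicates 1 (adjusted p = 0.108) or 3 (0.134), or without Biotin-positive replicates 1 (0.0978), 2 (0.0726) or 3 (0.140). With quantile normalization its difference was -0.036 (limma adjusted p = 0.306) and with an equal sum per library it was 0.0073 (limma adjusted p = 0.829).

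Among the 8 other effectors 4 rose, 2 fell and 2 did not pass, with a median log2 difference of 0.20. Ifi27, which encodes a small hydrophobic membrane protein, had 25.1, 25.2 and 28.1 FPKM in the Biotin-negative libraries, against 41.1, 40.3 and 40.1 FPKM in Biotin-positive libraries. Its Biotin-positive libraries were all higher, 1.55-fold on the mean (log2 difference 0.61, SE 0.0475, limma adjusted p = 5.04e-06). Rtp4, a chaperone of membrane receptors that also restrains viral replication, went the other way, from 96.1, 96.3 and 99.6 FPKM to 64.9, 64.2 and 66.6 FPKM. No Biotin-positive library came near the Biotin-negative ones, and its fold of 0.670 gave a log2 difference of -0.57 (SE 0.0303, limma adjusted p = 4.998e-07). Of the exonic bases of Rtp4, 13.9% also belong to another annotated transcript on its strand. Tor3a, an ATPase of the endoplasmic reticulum, was measured at 67.8, 65.7 and 66.7 FPKM against 100.4, 97.8 and 98.7 FPKM. All 3 Biotin-positive libraries lay above the Biotin-negative ones (log2 difference 0.56, SE 0.0284, limma adjusted p = 3.81e-07).

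Samd9l, a translation inhibitor, rose 1.45-fold from 55.6 ± 0.828 to 80.9 ± 2.19 FPKM, and Ifi44 rose 1.28-fold from 219 ± 3.25 to 279.9 ± 7.86 FPKM. Lgals3bp, a secreted glycoprotein that binds galectins, fell from 281 ± 11.7 to 236 ± 4.79 FPKM (log2 difference -0.25, limma adjusted p = 0.0002415). Xaf1, which promotes apoptosis by opposing XIAP, had 95.2, 109 and 103 FPKM against 97.4, 95.02 and 98.6 FPKM. Ifi35 had 78.5, 77.7 and 83.4 FPKM against 85.6, 86.75 and 76.35 FPKM. In both genes the groups overlapped, and neither passed (limma adjusted p = 0.186 for Xaf1 and 0.396 for Ifi35). Xaf1 passed as lower with quantile normalization (log2 difference -0.19, limma adjusted p = 0.0139), with an equal sum per library (-0.14, limma adjusted p = 0.0382) and without Biotin-negative replicate 1 (-0.13, limma adjusted p = 0.0192). Ifi35 passed as higher without Biotin-positive replicate 3 (adjusted p = 0.0451). Part of the exons of Ifi35, 16.8%, is also covered by an antisense gene.

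Directions were mixed among the most abundant members and nearly uniform among the others. The 10 members with the highest Biotin-negative means, from 97.3 to 1130.2 FPKM, split into 4 higher, 5 lower and 1 not passed, with a median log2 difference of -0.07. Over all tested genes, 37.8% were called higher and 36.1% lower. Among the 5 lower was Ifitm3, whose call was lost under 10 of 14 alternative settings. Of the 20 members between 15.1 and 93.0 FPKM, 19 were higher and 1 did not pass, with a median of 0.64. Irgm1, Iigp1, Ifi203 and Sp100, among these 20, lost their calls under at least 1 alternative setting. Of the 10 lowest, of at most 14.6 FPKM, 9 were higher and 1, Ifitm1, was lower, with a median of 0.96. These 10 include Cmpk2, Ifi205 and Ifitm1, whose directions the filter fixed. Across the 40 members, which share the same 6 libraries and whose starting level enters both measures, Spearman's rho between the Biotin-negative level and the log2 difference was -0.50 and Pearson's r was -0.44. Both correlations include Cmpk2, Ifi205 and Ifitm1.

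**Figure D5:**
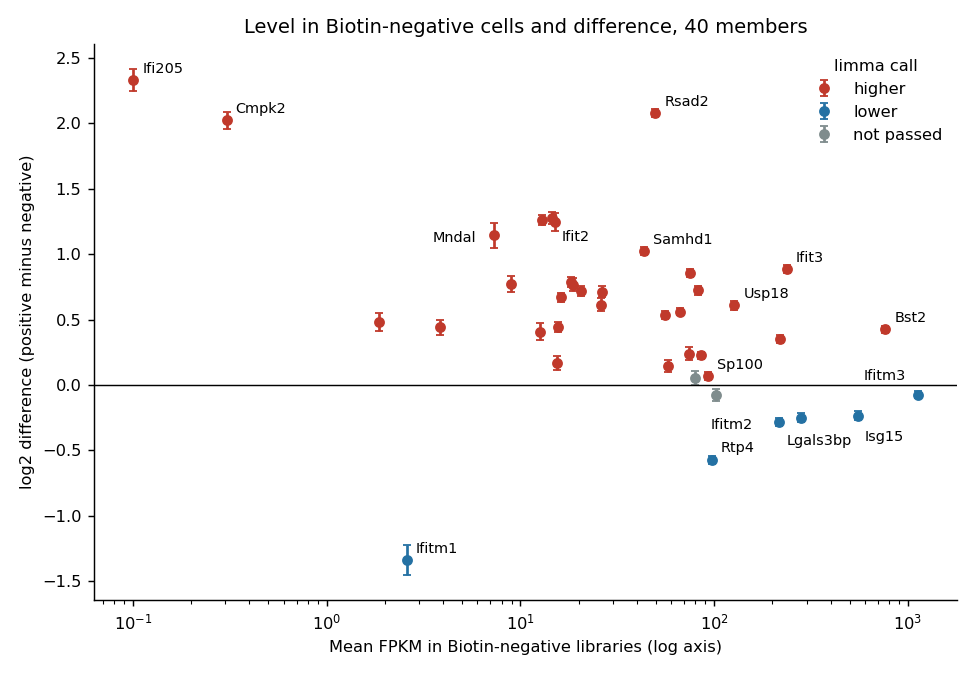
Log2 difference (vertical axis, Biotin-positive minus Biotin-negative) of the 40 members against their mean level in the Biotin-negative libraries (horizontal axis, FPKM, log scale). Members above 97 FPKM lie on both sides of 0, and among those below it only Ifitm1 was called lower. The filter fixed the directions of Ifitm1, Cmpk2 and Ifi205.

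The summed level of the 40 members therefore rose less than most of its parts. It was 4691, 4730.1 and 4764 FPKM in the Biotin-negative libraries, against 5724, 5719 and 5570.4 FPKM in Biotin-positive libraries. Every Biotin-positive sum was higher, 1.20-fold on the mean, with an exact two-sided permutation p of 0.1, the smallest that 3 libraries against 3 allow. This sum was 1.38 to 1.40% of all FPKM in the Biotin-negative libraries and 1.59 to 1.60% in Biotin-positive libraries. Ifitm3, Bst2 and Isg15 alone held 51.7% of it in the Biotin-negative and 45.3% in the Biotin-positive group, whereas the share of Rsad2 went from 1.05% to 3.77% and that of Ifit3 from 5.00% to 7.74%. The 6 members that fell held 48.2% and 35.7%.

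Genes upstream of these effectors were taken from 5 lists of the interferon pathway. Of 50 listed genes found, 37 were tested, of which 17 rose (45.9%), 13 fell (35.1%) and 7 did not pass, with a median log2 difference of 0.13. The called share of 81.1% stands beside 73.9% of all tested genes. Over all tested genes 37.8% rose, and the share that fell lies near the 36.1% over all tested genes. Among the ligands Ifnb1, which encodes interferon beta, was the only 1 of 12 that was tested. It had 0.739, 0.837 and 0.691 FPKM in the Biotin-negative libraries, against 1.66, 2.00 and 2.43 FPKM in Biotin-positive libraries, and it passed the filter through the latter alone. All 3 Biotin-positive values were higher, though low (log2 difference 0.78, SE 0.0959), and the filter fixed that direction. Of the 36 tested pathway genes other than Ifnb1, 16 rose, 13 fell and 7 did not pass, with a median log2 difference of 0.12.

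Of the 8 tested genes of receptors and their kinases, 6 fell (75%) and 2 did not pass, with a median log2 difference of -0.19. Over all tested genes, 36.1% fell. Ifnar2, a subunit of the type I receptor, stood at 45.0, 42.7 and 46.6 FPKM against 25.5, 26.0 and 26.5 FPKM. Jak1 stood at 65.3, 61.7 and 63.2 FPKM against 39.3, 37.8 and 38.6 FPKM. Both were lower in every Biotin-positive library, with log2 differences of -0.76 (limma adjusted p = 4.915e-07) and -0.70 (limma adjusted p = 2.91e-07).

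Of 9 tested transcription factors 5 rose (55.6%), 3 fell (33.3%) and 1 did not pass (median log2 difference 0.17). Over all tested genes, 37.8% rose and 36.1% fell. Irf1 rose from 18.1 ± 1.15 to 38.4 ± 1.78 FPKM (log2 difference 1.04, limma adjusted p = 4.325e-07) and Irf5 from 2.25 ± 0.134 to 5.39 ± 0.205 FPKM (0.97, limma adjusted p = 1.22e-06). Stat2 went from 73.6 to 89.8 FPKM and was higher, while Irf9 went from 44.7 to 32.8 FPKM and was lower. Both were chosen after their values were seen.

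Feedback inhibitors gave 3 that rose (42.9%), 1 that fell (14.3%) and 3 that did not pass of 7 tested (median log2 difference 0.15). Over all tested genes, 37.8% rose and 36.1% fell. The called share of the feedback inhibitors, 57.1%, was below the 73.9% of all tested genes. Socs1, which inhibits JAK kinases, rose from 1.53 ± 0.112 to 3.64 ± 0.0409 FPKM (log2 difference 0.87, limma adjusted p = 2.33e-06), and the phosphatase gene Ptpn11 from 30.7 ± 0.762 to 43.3 ± 0.737 FPKM (0.48, limma adjusted p = 2.66e-06). Of 12 nucleic acid sensors and adaptors 8 rose (66.7%), 3 fell (25%) and 1 did not pass (median log2 difference 0.34). Their called share was 91.7%, against the same 73.9%. Tlr3, an endosomal receptor of double-stranded RNA, rose from 6.50 ± 0.235 to 19.4 ± 0.918 FPKM (log2 difference 1.44, limma adjusted p = 5.366e-08), and the DNA sensor Cgas from 1.19 ± 0.0546 to 4.66 ± 0.348 FPKM (1.37, limma adjusted p = 2.89e-07).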

How the data were processed

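RNA of 6 L929 libraries, 3 per group, was extracted with TRIzol, checked on an Agilent Bioanalyzer and sequenced on an Illumina NovaSeq, per the labels' protocols. The submitters' processing notes name cutadapt 1.9.1, HISAT2 2.2.1, HTSeq 0.6.1 and GRCm39. The authors deposited FPKM values, 1 column per library. The program, denominator and strandedness behind them are not given in the sources used here. Although the notes name GRCm39, 99.1% of 21887 genes matched to the GENCODE vM21 annotation have exactly its GRCm38 start and end in the deposited table, so its coordinates are given as GRCm38. Low FPKM values showed no steps of single reads, so the depth is unknown and precision is the SD over 3 libraries.

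Tested were genes that reached 1 FPKM in 3 or more libraries, as log2(FPKM + 1) with limma 3.58.1 in R 4.3.3 (lmFit and eBayes with trend, a two-sided test). P-values were adjusted by Benjamini-Hochberg across the 11029 genes. The procedure was tested on simulated data. Groups came from the labels. Where a symbol had several rows, the row with the highest mean was used. The members and lists were chosen with earlier results of these data known. Every member is accounted for. Up to 3 passing members per family with the largest log2 difference, plus 1 that changed the opposite way, are given in full, and up to 2 passing genes per pathway list. Values in every library are also given for Ifitm3, Xaf1 and Ifi35, outside this rule. Ifit1, Irgm1, Ifi203, Sp100 and the remaining members are given in brief.

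Transcripts were compared with blastn 2.17.0 (alignments of at least 100 bases and 80% identity). Motifs were searched in RefSeq promoter windows. Python 3.11.15, numpy 2.4.6, pandas 2.3.3, scipy 1.17.1, matplotlib 3.10.9 and, in R, data.table (version 1.17.8) were used. The alternatives were a pseudocount of 0.1 FPKM, no filter, a minimum of 5 FPKM, median-of-ratios scaling, quantile normalization, eBayes without a trend, an equal sum per library, the replicate number as a block, leaving out each library, and a log2 threshold of 1.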

Additional observations from a re-analysis of the deposited data

How the results depend on the processing

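Of the 40 members, 33 kept their call and direction under each of the 14 alternatives that keep the threshold of the test, where they were tested, and Irgm1, Iigp1, Ifitm3, Ifi203, Sp100, Xaf1 and Ifi35 lost or gained a call under at least 1. With quantile normalization the difference of Sp100 was -0.036 and that of Ifi35 was -0.081, and with an equal sum per library that of Ifi35 was -0.0097, against positive values otherwise, and the cause was not tested. Over these 14 alternatives 27 to 32 members were higher and 4 to 7 lower. With a log2 threshold of 1 added to the test these counts were 8 and 1. Quantile normalization also moved the log2 differences of Ifitm2 to -0.42, Lgals3bp to -0.38, Trim30a to 0.12 and Ifi44 to 0.22, an equal sum per library moved that of Ifitm3 to -0.14, and a pseudocount of 0.1 FPKM moved those of Ifi205 to 4.65 and Ifitm1 to -2.41. The median log2 difference of the members was 0.47 with quantile normalization, 0.49 with an equal sum per library, and 0.50 to 0.57 when 1 library was left out. With a minimum of 5 FPKM, 36 members were tested. Without the 13 members that share exonic bases with another gene, an alternative chosen after seeing the data, 22 of 27 were higher and 4 lower. The depth is unknown, so low members such as Cmpk2, Ifi205 and Ifitm1 have no counting interval.

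The labels do not say that equal replicate numbers belong together, and the deviations of same-numbered libraries from their group means correlated at 0.0371, 0.0120 and 0.0143, so the numbers were not used as pairs. With the number as a replicate block, 31 members were higher and 5 lower, 4113 genes in all were higher and 3927 lower, and of the pathway genes 17 were higher and 12 lower.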
